A study of Mus musculus with 6 samples.

Results

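Npas2, Cry1 and Bhlhe40 are circadian clock genes, chosen by name from the authors' deposited table, where all 3 were found among 1386 genes and loci. RNA had been sequenced from intestinal epithelial cells of wild-type (WT) mice on normal chow. One group was gavaged daily with 400000000 cells of Akk, the gut bacterium Akkermansia muciniphila, which feeds on mucus, for 7 weeks from 8 weeks of age. Control mice received PBS, the carrier. Each group had 3 libraries, numbered 1 to 3 by the labels. Whether each was made from a separate mouse is not stated, and p-values here reflect only how far these libraries scatter, part of which may be technical. The labels do not give the time of day at which the cells were collected.

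The mammalian clock is a transcriptional feedback loop that runs in most cells, the intestinal epithelium included. NPAS2, a basic helix-loop-helix PAS protein, pairs with BMAL1 (the product of Arntl) in place of its paralogue CLOCK and activates genes through E-box elements. The period and cryptochrome proteins, CRY1 among them, bind this activator and repress it, while BHLHE40 (also named DEC1) competes for E-boxes as a repressor. A second loop acts through nuclear receptors, among which the REV-ERB proteins repress genes such as Arntl, Npas2 and Cry1. Levels of these transcripts cycle over the day, each with its own phase.

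The 3 members thus cover an activator and repressors of the loop. Npas2 (ENSMUSG00000026077) lies on chromosome 1 from 39193731 to 39363236 on the plus strand. Cry1 (ENSMUSG00000020038) lies on chromosome 10 from 85131700 to 85185064 on the minus strand. Bhlhe40 (ENSMUSG00000030103) lies on chromosome 6 from 108660629 to 108666925 on the plus strand. All 3 are protein-coding in GENCODE M21, which is on GRCm38 (equivalent to mm10). Exons of Bhlhe40 share 118 bases with those of an antisense gene on the opposite strand. The strand setting of the counting is not given in the sources used here, so reads of these bases could belong to either gene. Exons of Npas2 and Cry1 share no base with another annotated gene.

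The RefSeq promoter tables (GRCm38.p6) held Npas2 and Cry1, and the bases before the start site in those tables, without annotated exons, are shown because E-boxes and nuclear receptor elements are sites through which the loops are known to act. The start site in the tables is at 39194272 for Npas2, 541 bases inside the GENCODE gene, so the Npas2 stretch belongs to an internal start and not to the outermost one. For Cry1 it is at 85185054, 10 bases inside. Of the 250 bases before each start, 60 of Npas2 and 10 of Cry1 fall in annotated exons and are not shown. Capitals mark the motifs found, and the sequences run 5′ to 3′ on the strand of the gene, chr1:39194022-39194211 (plus) for Npas2 and chr10:85185065-85185304 (minus) for Cry1.
Npas2: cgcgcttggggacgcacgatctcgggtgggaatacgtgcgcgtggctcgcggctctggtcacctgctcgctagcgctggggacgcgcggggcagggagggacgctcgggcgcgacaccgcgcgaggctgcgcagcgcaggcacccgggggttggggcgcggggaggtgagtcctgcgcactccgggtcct
Cry1: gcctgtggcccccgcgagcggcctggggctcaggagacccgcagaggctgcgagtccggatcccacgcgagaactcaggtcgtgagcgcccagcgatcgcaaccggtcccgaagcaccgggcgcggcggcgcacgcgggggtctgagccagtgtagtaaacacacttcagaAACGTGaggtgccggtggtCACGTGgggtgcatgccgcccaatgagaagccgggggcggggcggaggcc

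In the full window of 250 bases before each of these start sites, both strands were searched for the E-box CACGTG, its variant CACGTT, the nuclear receptor core motif AGGTCA and the D-box forms TTACGTAA and TTATGTAA. The Cry1 window held the E-box at -60 to -55 and the variant, on the opposite strand, at -79 to -74, without overlap between them. None of these letter strings was in the window before the internal Npas2 start, and the bases before its outermost start were not searched. Of 32851 RefSeq promoter windows, 6.02% held CACGTG, 3.85% CACGTT, 14% AGGTCA, 0.113% TTACGTAA and 0.819% TTATGTAA. A match describes the letters in the window and does not show that a factor was bound there.

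The deposited table holds only genes that the authors selected on these same libraries. Of the 1386, 346 (25%) had been marked higher in Akk and 1040 lower. The direction of each member was therefore fixed by that choice, and testing it again on these libraries gives no independent evidence. For an unlisted gene it cannot be told apart whether it failed the selection or had no measurement. The depth implied by the ratio of count to FPKM (fragments scaled to gene length and depth) was 23614092 to 29441074 fragments per library. The PBS replicate 2 library stood apart, being the highest for 1022 of the 1040 genes listed as lower. Counts of listed markers cannot check the label of the tissue, because a marker enters the table only through that selection. The table held 3 of 15 enterocyte, 10 of 12 Paneth cell and 16 of 17 proliferation markers. It held 0 of 11 immune and 0 of 8 stromal markers, which does not show whether such cells were present. Values of the unlisted markers were not analysed here.

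Npas2, Cry1 and Bhlhe40 were all listed as higher in Akk in the authors' deposited table, and in each the excess lay mainly in Akk replicates 1 and 2. The third Akk library was close to the PBS libraries for all 3 genes. None of the 3 passed the test over all genes. In bulk samples, more RNA per cell and more cells that express a gene cannot be told apart.

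Npas2, the activator, had 13.07, 11.53 and 3.83 FPKM in Akk replicates 1 to 3, against 2.95, 4.54 and 4.40 FPKM in PBS replicates 1 to 3. The counts behind these values were 2307, 1922 and 595 in Akk and 449, 648 and 731 in PBS. Akk replicates 1 and 2 lay above every PBS library, while Akk replicate 3 lay inside the PBS range, so the groups overlapped. The mean was 9.48 ± 4.95 FPKM in Akk and 3.96 ± 0.879 FPKM in PBS (SD, n = 3 each), a ratio of 2.39. Akk replicates 1 and 2 averaged 3.21 times Akk replicate 3, which itself was 0.968 times the PBS mean.

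Cry1, the repressor of the CLOCK or NPAS2 dimer, had 9.98, 10.78 and 5.20 FPKM in Akk replicates 1 to 3. In PBS replicates 1 to 3 it had 5.74, 2.56 and 4.25 FPKM. The counts were 1269, 1285 and 582 in Akk and 648, 261 and 505 in PBS. Again replicates 1 and 2 of Akk were above all PBS libraries, and Akk replicate 3 fell below PBS replicate 1. Cry1 averaged 8.65 ± 3.02 FPKM in Akk and 4.18 ± 1.59 FPKM in PBS (SD, n = 3 each), a ratio of 2.07. Its lowest value was in PBS replicate 2, and with that library left out of the PBS mean the ratio was 1.73.

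Bhlhe40, the E-box repressor, had 20.57, 20.02 and 14.35 FPKM in Akk replicates 1 to 3, against 13.33, 13.89 and 11.73 FPKM in PBS replicates 1 to 3. The counts were 2655, 2446 and 1649 in Akk and 1543, 1451 and 1431 in PBS. It was the only member whose groups did not overlap, with Akk replicate 3 just above the highest PBS library. The mean was 18.31 ± 3.44 FPKM in Akk and 12.98 ± 1.12 FPKM in PBS (SD, n = 3 each), a ratio of 1.41. The same full separation upward held for 130 of the 1386 genes (9.38%), which had been selected on this contrast, so nothing is read from that separation. In an exact two-sided permutation test of the FPKM values, p was 0.1 for Bhlhe40, the smallest that 3 against 3 samples can give, and 0.3 for Npas2 and 0.2 for Cry1.

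**Figure D1:**
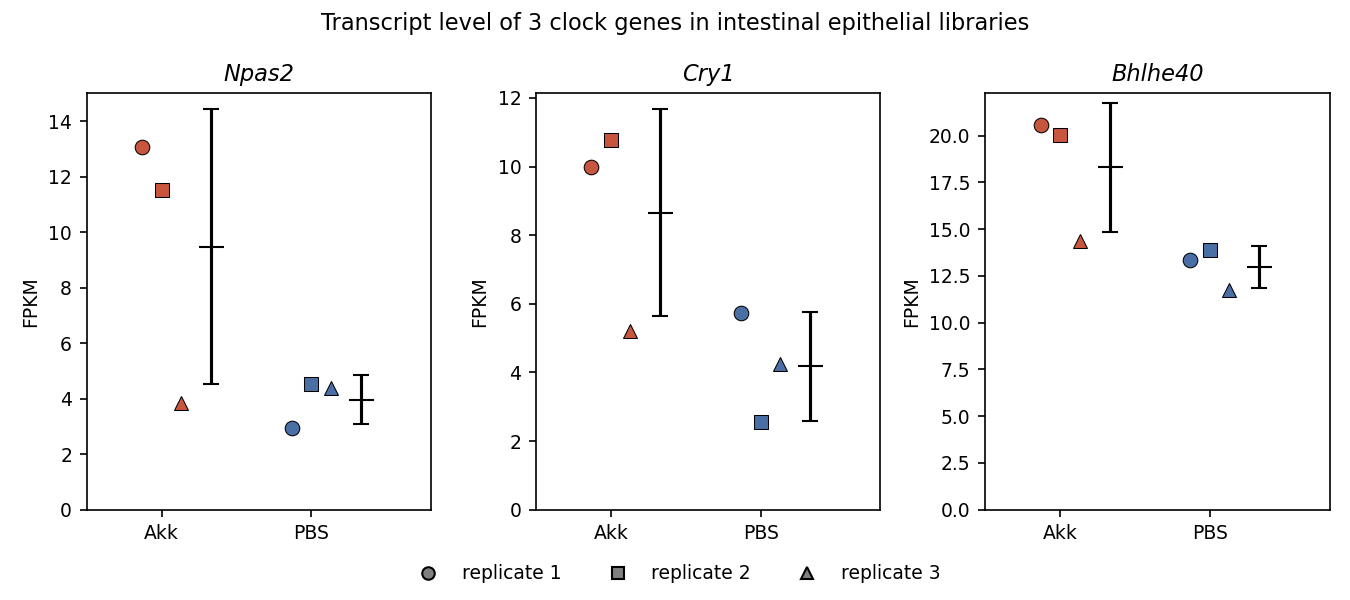
FPKM of Npas2, Cry1 and Bhlhe40 in each library, Akk left and PBS right, with the symbol giving the replicate and the bar the mean ± SD of 3 libraries. Akk replicate 3 (triangle) had 3.83, 5.20 and 14.35 FPKM, close to the PBS libraries, while Akk replicates 1 and 2 were above all PBS libraries in each gene.

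With the quasi-likelihood test of edgeR over all 1386 genes and Benjamini-Hochberg adjustment, Npas2 had a log2 fold change (Akk over PBS) of 1.26 (SE 0.62, adjusted p = 0.102). The log2 fold change was 1.05 for Cry1 (SE 0.61, adjusted p = 0.1495) and 0.49 for Bhlhe40 (SE 0.44, adjusted p = 0.328). No gene of the table passed in either direction (0%). At an unadjusted p under 0.05 the test took 38 genes higher in Akk (2.74%), with 0 of the 3 members among them. Ranked by fold change among the 346 genes listed as higher, Npas2 was at place 68, Cry1 at 107 and Bhlhe40 at 244. The median log2 fold change was 1.05 over the 3 members, 0.74 over the 346 genes and -1.85 over all 1386.

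DESeq2 called Npas2 (log2 fold change 1.26, adjusted p = 0.0438), where it called 74 genes higher (6.58% of those with an adjusted p). It did not call Cry1 (adjusted p = 0.0947) or Bhlhe40 (adjusted p = 0.296). Without PBS replicate 2 the edgeR log2 fold changes were 1.38 for Npas2 (SE 0.53), 0.79 for Cry1 (SE 0.35) and 0.54 for Bhlhe40 (SE 0.22). None passed there either (adjusted p = 0.078, 0.0985 and 0.0881), where 24 genes (1.73%) were called higher. Without Akk replicate 3 they were 1.64, 1.31 and 0.64, also without a call, and no gene was called higher (0%). The edgeR fit shares its estimate of spread over genes, and its biological coefficient of variation was 0.707 over the 6 libraries, or 0.29 when PBS replicate 2 was left out. The spread of Bhlhe40 itself was smaller, with an SD of 18.8% of the mean in Akk and 8.63% in PBS.

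**Figure D2:**
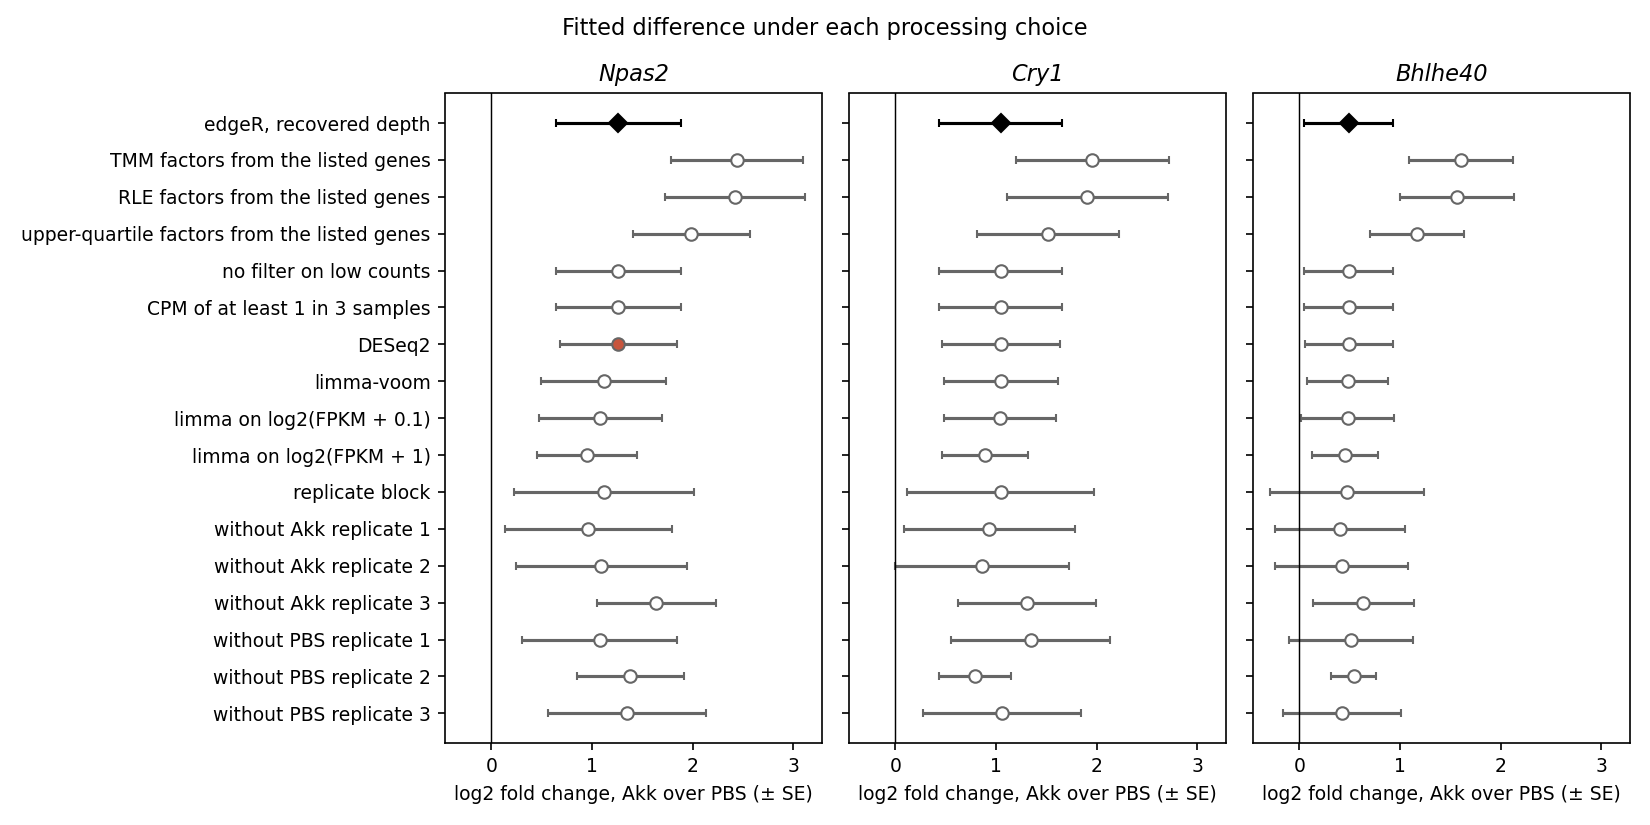
Fitted log2 fold change (Akk over PBS, with SE) of each member under every processing choice. All points lie above 0, and the filled red point (DESeq2 for Npas2, 1.26) is the only alternative past the adjusted threshold of 0.05; the black diamond is the edgeR fit on the recovered depth.

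The authors' deposited table gave log2 fold changes of 1.35 for Npas2 (p = 0.000831), 1.03 for Cry1 (p = 0.0166) and 0.79 for Bhlhe40 (p = 0.00284). Its header does not say whether p was adjusted. The log2 ratio of the mean FPKM was 1.26, 1.05 and 0.50 for the same genes. The authors' value was thus larger than the ratio of the FPKM columns for Bhlhe40 and Npas2, and slightly smaller for Cry1. Other listed clock and clock output genes, described below, also had gaps. The authors' value was -1.09 against -2.55 for Timeless, -0.81 against -1.37 for Ppara and 1.16 against 1.24 for Slc9a3.

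Levels per gene length could be set beside each other within the group. In Akk the order of mean FPKM was Bhlhe40 (18.31), Npas2 (9.48) and Cry1 (8.65), and in PBS it was Bhlhe40 (12.98), Cry1 (4.18) and Npas2 (3.96). Bhlhe40 exceeded the other two in every library. Npas2 and Cry1 did not differ beyond their spread in either group, and which was higher varied from library to library.

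Of 27 genes of the core clock list, 4 were in the table, 3 marked higher in Akk and 1 lower, and 0 passed the edgeR test. Beside the 3 members this was Timeless. Over these 4 the median log2 fold change was 0.77, against 0.74 over the 346 genes listed as higher and -1.85 over all genes. As 3 of the 4 had been selected as higher, nothing is read from this median. The partners and targets Arntl, Clock, Per1, Per2, Per3, Cry2, Nr1d1, Nr1d2, Dbp, Tef, Hlf, Nfil3, Ciart and Bhlhe41 were not listed, nor were 9 others of the list. Whether these differed was not analysed here.

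Timeless, a replication fork protein in mammals that is named for a fly clock gene, was listed as lower. It had 0.217, 0.367 and 0.309 FPKM in Akk replicates 1 to 3 and 0.248, 4.29 and 0.688 FPKM in PBS. PBS replicate 2 held the high value, and PBS replicate 1 lay inside the Akk range. The log2 fold change was -2.52 (SE 1.07, adjusted p = 0.0861), past the threshold without PBS replicate 1 (-3.03) and without PBS replicate 3 (-2.91). Without PBS replicate 2 it was -0.61 (SE 0.47, adjusted p = 0.249), and with TMM and RLE factors from the listed genes -0.51 and -0.44. Of all genes, 52.2% were called lower without PBS replicate 1 and 50.9% without PBS replicate 3. DESeq2, which also called Timeless, called 63.3% of those with an adjusted p lower. The summed FPKM of the 16 listed of 17 proliferation markers ranged from 22.4 to 31.8 in Akk and from 39.9 to 479 in PBS, also highest in PBS replicate 2, and their part in the value of Timeless was not tested.

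Of 18 clock output genes, 2 were listed, 1 in each direction, and 0 passed. Slc9a3, the apical sodium-proton exchanger of enterocytes, known as a clock-controlled gene in rodents, had 150.5, 168.8 and 36.5 FPKM in Akk replicates 1 to 3. In PBS replicates 1 to 3 it had 44.7, 40.8 and 65.2 FPKM. Akk replicate 3 was the lowest of all 6 libraries, while Akk replicates 1 and 2 were the highest. The edgeR log2 fold change was 1.20 (SE 0.58, adjusted p = 0.0991), and DESeq2 called it (adjusted p = 0.0416). Ppara, a lipid-sensing nuclear receptor whose transcript cycles in mouse liver, was listed as lower, with 2.41, 1.28 and 2.14 FPKM in Akk and 3.84, 7.45 and 3.79 FPKM in PBS. Its groups did not overlap, with Akk below PBS, as was so for 65% of the table's genes, and its log2 fold change was -1.33 (SE 0.66, adjusted p = 0.102). With factors computed from the listed genes this difference was -0.43 (upper quartile, adjusted p = 0.334), -0.015 (RLE, adjusted p = 0.989) and -0.001 (TMM, adjusted p = 0.999).

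**Figure D3:**
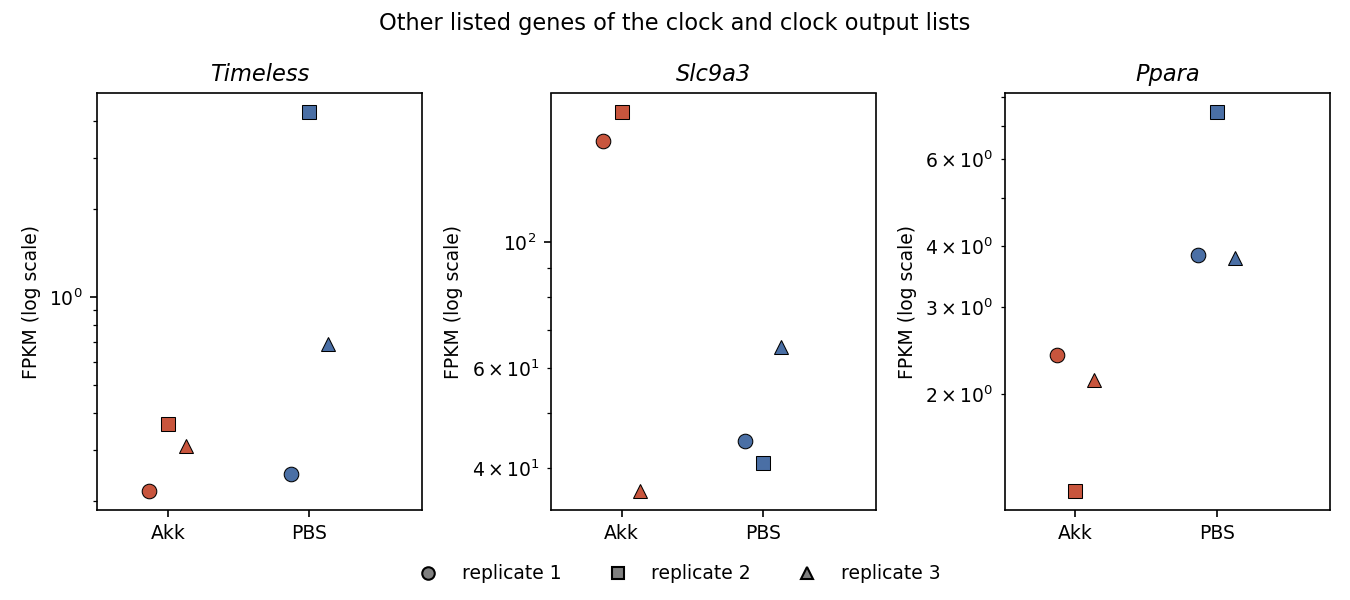
FPKM on a log scale of the other 3 listed genes of the clock and clock output lists, Akk left and PBS right, with the symbol giving the replicate. Slc9a3 had its Akk replicate 3 value (36.5 FPKM) below the PBS libraries, and Timeless had 4.29 FPKM in PBS replicate 2.

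The layout of the members by library was shared by many genes of the table. Akk replicate 3 was the lowest Akk library for 236 of the 346 genes listed as higher (68.2%), the 3 members among them. Akk replicates 1 and 2 lay above all PBS libraries while Akk replicate 3 did not for 151 of the 346 (43.6%), Npas2 and Cry1 among them. The mean of Akk replicates 1 and 2 was at least 3 times Akk replicate 3 for 29 of the 346 (8.38%), Npas2 among them, a limit chosen after its values were seen.

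Npas2, Cry1 and Bhlhe40 were next compared with each named gene of a mean FPKM of at least 1 (1156 others) by Pearson's r of log2(FPKM + 0.1) over the 6 libraries. The genes share these libraries and their selection on the same contrast, so r is a description. Npas2 was most like B3gnt7, a glycan-extending transferase (r = 0.987), Hsd17b2, which inactivates sex steroids (0.985), Bet1, a SNARE of early secretory traffic (0.982), Ceacam1, a cell adhesion molecule (0.982), and Mfsd12 (0.98). Cry1 was most like the keratin gene Krt12 (r = 0.976), Ptafr, the receptor of platelet-activating factor (0.972), Itgb2l (0.971), Slc16a6, of the monocarboxylate transporter family (0.97), and Ppp1r16b (0.96). Bhlhe40 was most like Tppp, a tubulin-binding protein (r = 0.979), Lrat, which esterifies retinol (0.968), the immediate early gene Ier5 (0.951), Angptl4, a secreted inhibitor of lipoprotein lipase (0.951), and Fgf11 (0.926). No gene stood in more than 1 of these lists.

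Among the members themselves, r was 0.911 between Npas2 and Bhlhe40, 0.807 between Cry1 and Bhlhe40 and 0.73 between Npas2 and Cry1. The members were not each other's closest genes: of 1156 genes, Npas2 ranked 12 and Cry1 59 for Bhlhe40, Bhlhe40 ranked 50 and Cry1 148 for Npas2, and Bhlhe40 ranked 93 and Npas2 121 for Cry1. Cry1 and the 5 genes most like Cry1 had their lowest value in PBS replicate 2, while Npas2 and Bhlhe40 had their highest PBS value there. PBS replicate 2 was the lowest library for 150 of the 346 genes listed as higher (43.4%). The 5 genes were picked for likeness over these same libraries, so a shared lowest library follows in part from that choice.

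**Figure D4:**
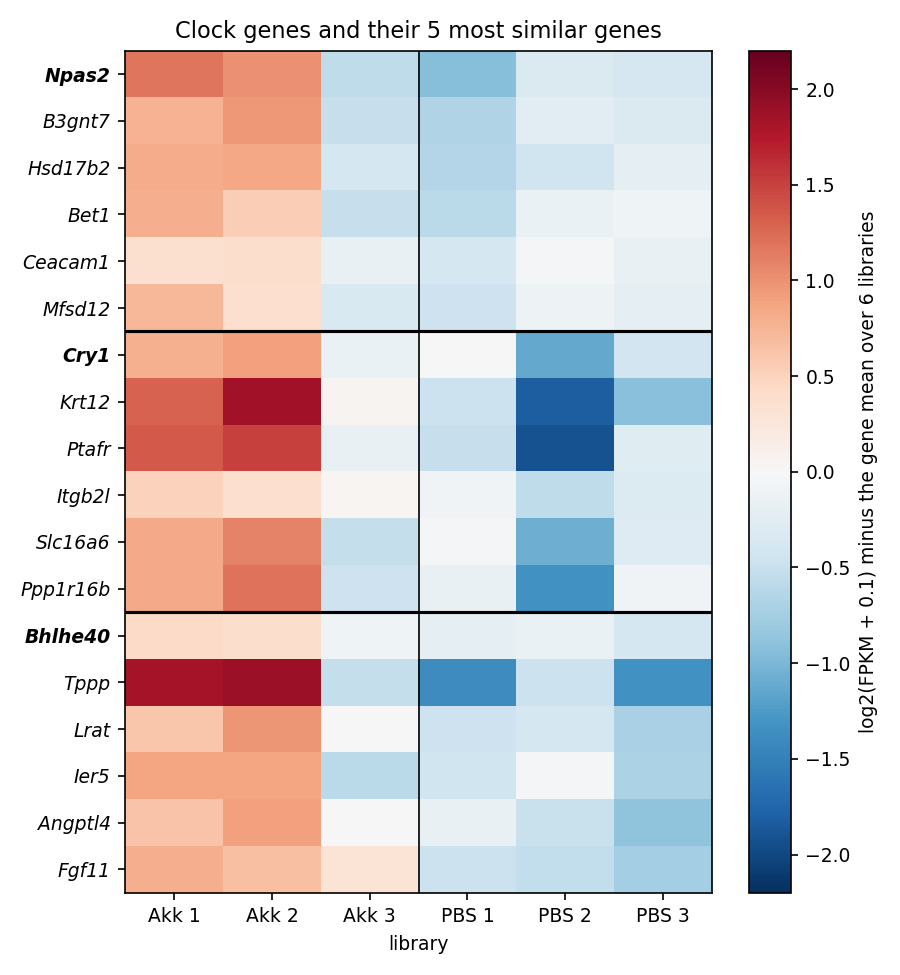
Heat map of log2(FPKM + 0.1) minus the mean of each gene over the 6 libraries, for Npas2, Cry1 and Bhlhe40 (bold) and the 5 genes most like each, with Akk libraries left of PBS libraries. Akk replicates 1 and 2 are red in every row, Akk replicate 3 is close to the PBS libraries in most, and PBS replicate 2 is the lowest library in the Cry1 block.

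Cell type markers also varied between the same libraries. The 3 listed of 15 enterocyte markers summed to 5653, 6180 and 4538 FPKM in Akk replicates 1 to 3, against 2343, 657 and 3862 FPKM in PBS. The lowest library for these markers, PBS replicate 2, was also the lowest for Cry1 but not for Npas2 or Bhlhe40. The 10 listed of 12 Paneth cell markers summed to 168 to 197 FPKM in Akk and 215 to 8745 FPKM in PBS, and the 5 listed of 10 stem cell markers to 7.38 to 10.75 FPKM in Akk and 13.82 to 627 FPKM in PBS. The Paneth and stem cell sums were highest in PBS replicate 2. The 3 listed of 7 enteroendocrine markers (2 marked higher, 1 lower) summed to 81.5 to 84.99 FPKM in Akk and 44.6 to 62.7 FPKM in PBS, without overlap. Zg16, the 1 listed of 7 goblet cell markers, had 1198 to 1705 FPKM in Akk and 668 to 1205 FPKM in PBS, with overlap. All 3 listed enterocyte markers had been marked higher in Akk, and all listed Paneth and stem cell markers lower. The direction of such sums largely follows from that selection, so nothing is read from their separation. Of the single genes in the table, 9.38% had all Akk libraries above all PBS libraries and 65% had them below. The part of these markers in the values of the 3 clock genes was not tested. No listed marker of these lists was at 0 in all libraries. For Npas2 and Bhlhe40 the log2 fold change was as large without PBS replicate 2 (1.38 and 0.54) as with it. For Cry1 it was smaller (0.79). The enterocyte, Paneth, stem cell, proliferation and enteroendocrine sums of PBS replicates 1 and 3 also lay outside the Akk range. The part of the markers in any of these fold changes was not tested.

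Akk replicate 3 differed from the other Akk libraries in genes of the duodenum as well. Of 6 genes of duodenal iron and calcium absorption, chosen after earlier results of these data were seen, S100g, Slc40a1 and Cybrd1 were listed. They summed to 6.97, 17.95 and 116 FPKM in Akk replicates 1 to 3 and to 12.91, 14.33 and 5.22 FPKM in PBS. S100g, the calcium-binding protein calbindin of enterocytes, had 97.7 FPKM in Akk replicate 3, 12.07 times the PBS mean. None of the 3 was at 0 in all libraries. All 3 had been marked higher in Akk, yet Akk replicates 1 and 2 averaged only 1.14, 1.175 and 1.28 times the PBS mean for S100g, Slc40a1 and Cybrd1. Their listing thus rested mainly on Akk replicate 3, and its high duodenal sum follows from that selection. This library also had the lowest Akk value of Npas2, Cry1, Bhlhe40 and Slc9a3, and nothing is read from the match. The part of intestinal position in the values of these 4 genes was not tested.

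**Figure D5:**
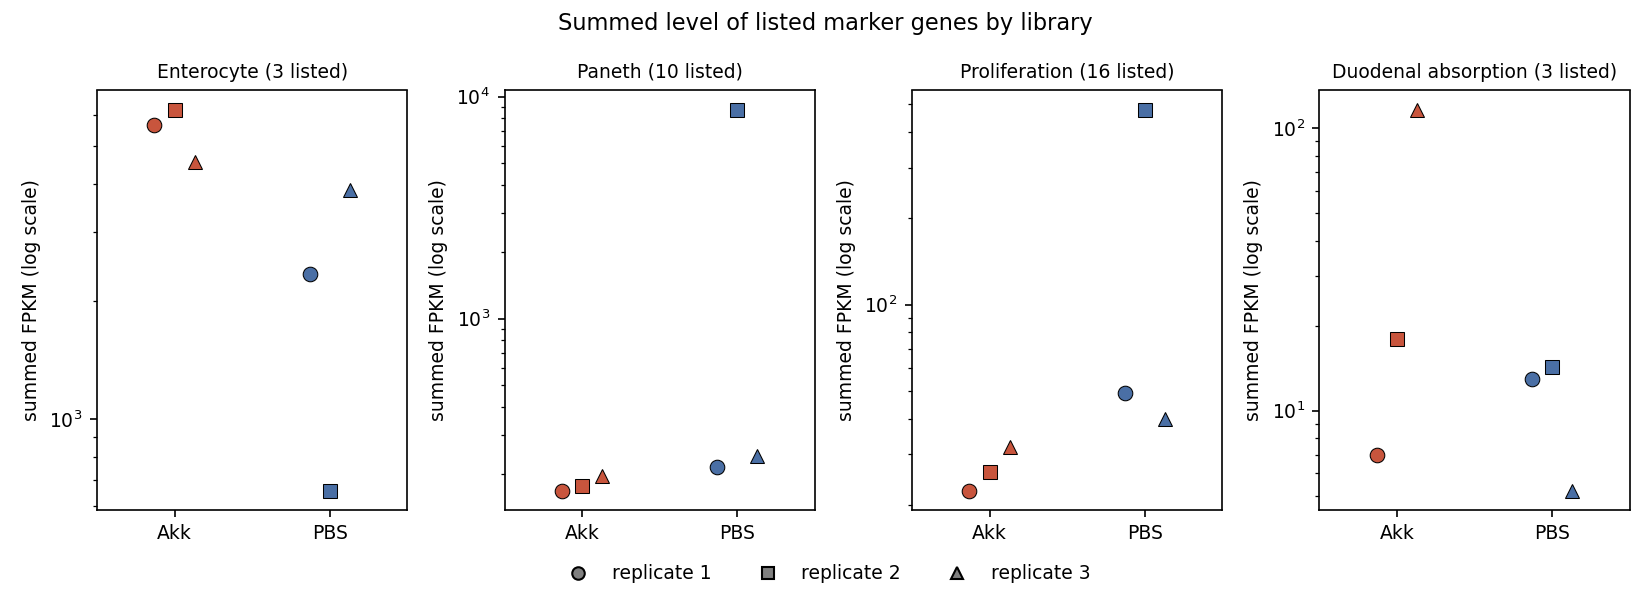
Summed FPKM on a log scale of the listed enterocyte, Paneth cell, proliferation and duodenal absorption markers by library, Akk left and PBS right, with the symbol giving the replicate. PBS replicate 2 is lowest for enterocyte markers (657 FPKM) and highest for Paneth cell markers (8745 FPKM), and Akk replicate 3 is highest for the duodenal genes (116 FPKM).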

How the data were processed

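The authors deposited 1 table that gives, per the file headers, a raw count and an FPKM value per gene and library (6 libraries), made on the mm10 build per the submitters' processing notes. The authors' deposited table also holds their p-value and log2 fold change of Akk over PBS. Trizol RNA went into Illumina mRNA libraries, per the labels' protocols. The sources used here do not name the aligner, counter, annotation, strand setting or test. The largest of the authors' p-values was 0.0498 and the smallest fold 1.50, so only selected genes are in the table. Left out were 2 lines without a gene, and 1 symbol that had become a date was recovered from its Ensembl ID.

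Depth was recovered from count over FPKM in 560 genes with a count of at least 200 in each library, and exon lengths of 548 of them. It served as library size in edgeR 4.0.16 (R 4.3.3; filterByExpr, quasi-likelihood F test, no replicate term, Benjamini-Hochberg over all 1386 genes at 0.05). The filter removed no gene. The SE given for edgeR was derived from the test, as the absolute log2 fold change over the square root of F. The fit was tested on simulated data with less spread than these libraries and no library set apart. That test does not show how well the fit finds differences here. Alternatives were TMM, RLE and upper-quartile factors from the listed genes, with their summed counts as library size in place of the recovered depth. Further ones were other filters, DESeq2 1.42.0 and limma 3.58.1 (voom, or log2 FPKM with a pseudocount of 0.1 or 1). The replicate number as a block and each library left out completed them. The members, the lists and the naming rule (the members, every listed gene of both clock lists, and the 5 genes most like each member) were chosen with earlier results of these data known. Genes outside that rule are markers, and 1 listed gene is not reported here. Counting error is small beside the spread between libraries, since the lowest count of a member was 261.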

Additional observations from a re-analysis of the deposited data

How the results depend on the processing

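The direction of Npas2, Cry1 and Bhlhe40 was the same under all 16 alternatives (2 of them, the filters, removed no gene), which reuse the libraries on which the genes were selected. The log2 fold change ranged from 0.95 to 2.44 for Npas2, 0.79 to 1.96 for Cry1 and 0.40 to 1.60 for Bhlhe40. The highest values came from fits with factors computed from the listed genes, which also took the summed counts of those genes as library size. These fits shifted the all-gene median of the log2 fold change by 1.68 (TMM), 1.70 (RLE) and 1.22 (upper quartile). Less that median, Npas2, Cry1 and Bhlhe40 stood at 3.12, 2.90 and 2.34 with the recovered depth and at 2.62, 2.13 and 1.77 with TMM. DESeq2 called Npas2 (1.26), and the cause was not tested. Leaving out each library gave 0.96 to 1.64 for Npas2, 0.79 to 1.34 for Cry1 and 0.40 to 0.64 for Bhlhe40 (adjusted p from 0.078 to 0.592).

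The count of all genes past the threshold, 0 with edgeR, was 786 with DESeq2 (262 adjusted p were NA), 2 with limma-voom, 1 with limma on log2(FPKM + 0.1) and 6 with the replicate block. It was 0 to 734 with a library left out: 734, 270 and 732 on omitting PBS replicates 1, 2 and 3, and 0 on omitting any Akk library. The count of listed clock genes, 0 with edgeR, was 3 with DESeq2 (Npas2, Slc9a3 and Timeless) and 0 to 1 with a library left out. With the replicate block the log2 fold changes were 1.12, 1.05 and 0.48 (adjusted p = 0.294, 0.324 and 0.578). The labels do not say whether same-numbered libraries were pairs. Between them, r of the residuals about the group means was 0.24, -0.08 and -0.30. Between differently numbered libraries it ranged from -0.30 to 0.30, so these values cannot settle pairing. With 3 libraries per group, the spread between libraries and not depth limits these values.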
